A study of Mus musculus with 20 samples.

Results

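De novo lipogenesis is the making of fatty acids from carbohydrate carbon, and in the liver it feeds the triglyceride store. Citrate exported from mitochondria is cleaved to acetyl-CoA by ATP citrate lyase (Acly), acetyl-CoA carboxylases (Acaca and Acacb) turn acetyl-CoA into malonyl-CoA, and fatty acid synthase (Fasn) builds palmitate with NADPH that malic enzyme (Me1) helps to supply. Elovl6 then lengthens palmitate and Scd1 introduces a double bond. The transcription factors SREBP-1 (encoded by Srebf1) and ChREBP (encoded by Mlxipl) switch on these enzymes after feeding, and Thrsp (Spot 14) is a nuclear protein that follows the lipogenic program. The 10 genes Srebf1, Mlxipl, Thrsp, Acly, Acaca, Acacb, Fasn, Elovl6, Scd1 and Me1 were selected by name as the core of this pathway, and each symbol matched 1 row of a count table of 21780 genes. All 10 were among the 15522 genes tested.

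The transcripts were measured by RNA-seq in the livers of male mice labelled C57Bl/6J, 5 per group, and every mouse ate a high-fat diet (HFD, 42% of kcal from fat) from 8 weeks of age. At 10 weeks of age, HFD control received corn oil by 1 oral gavage, HFD + Aroclor received Aroclor 1260 at 20 mg/kg, HFD + PCB 126 received PCB 126 at 20 µg/kg and HFD + Aroclor + PCB 126 (the combined exposure) received both doses. Aroclor 1260 is a commercial mixture of polychlorinated biphenyls (PCBs), and PCB 126 is a dioxin-like congener that activates the aryl hydrocarbon receptor. The methods give 12 weeks of diet with 10 weeks after the gavage, the labels give 12 weeks of treatment, and the livers were taken after a fast of about 6 h. No group without the high-fat diet is part of these data, and lipogenic transcripts are known to fall with fasting, so the levels below are those of fasted, fat-fed livers. The sources do not say when in the day each mouse was killed.

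Library totals ranged from 21836506 to 36854887 counts, and the lowest count of any of the 10 genes in any library was 516. The livers carried the defining hepatocyte transcript Alb at 52496 to 85323 CPM (counts scaled to library size). Cyp1a1, the classical target of the aryl hydrocarbon receptor, ranged from 0.219 to 0.940 CPM in HFD control and from 4.09 to 314 CPM in HFD + PCB 126, but only from 0.792 to 2.62 CPM in the combined exposure, which is labelled with the same PCB 126 dose (log2FC -5.87 against HFD + PCB 126, edgeR adjusted p = 0.0136, and 0.0827 after GC correction). Cyp1a2, another target, was higher than in HFD control in both groups given PCB 126 (log2FC 2.04 and 1.00, edgeR adjusted p = 3.3e-04 and 0.0033). Whether the dose of the combined exposure was as labelled was not tested. Cyp2b10, a target of the constitutive androstane receptor, had a log2FC of 1.97 with Aroclor and 1.72 with the combined exposure (edgeR adjusted p = 0.222 and 0.083). The dependence of counts on the GC content of the transcripts also differed between libraries. The slope of log2 level over GC content per library (log2 CPM less the mean of all libraries, per 10 percentage points of GC) averaged 0.234 ± 0.131 (SD, n = 5) for HFD control and -0.00075 ± 0.0736 for HFD + Aroclor. It averaged 0.103 ± 0.189 for HFD + PCB 126 and -0.337 ± 0.163 for the combined exposure. The 3 exposed groups differed from HFD control with p = 0.0159, 0.222 and 0.00794 (two-sided exact permutation test, 5 mice against 5, smallest p possible 0.00794). Differences that passed, and others that the correction moved, are therefore also given after a GC correction, in which the smooth trend of each library over GC content was removed.

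The genes lie on 6 chromosomes of GRCm38, and 4 of them are on chromosome 11. Srebf1 (ENSMUSG00000020538) is at chr11:60199089-60222581, Acaca (ENSMUSG00000020532) at chr11:84129672-84401651, Acly (ENSMUSG00000020917) at chr11:100476353-100528000 and Fasn (ENSMUSG00000025153) at chr11:120805846-120824547. Acacb (ENSMUSG00000042010) is at chr5:114146535-114250761 and Mlxipl (ENSMUSG00000005373) at chr5:135089890-135138382. Scd1 (ENSMUSG00000037071) is at chr19:44394455-44407879, Elovl6 (ENSMUSG00000041220) at chr3:129532355-129638495, Me1 (ENSMUSG00000032418) at chr9:86581371-86695953 and Thrsp (ENSMUSG00000035686) at chr7:97412938-97417730. Srebf1 overlaps Rai1 and Acaca overlaps Gm11437, both on the opposite strand. Whether the counting used strand is not given in the sources used here, so reads in these overlaps cannot be assigned with certainty.

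The promoters are shown for the genes on which the comparisons and the correlation below turn. The RefSeq table of GRCm38.p6 held 13 start sites for 9 of the 10 genes, each with 250 bases before and 50 after the start, and Scd1 was not matched. The windows were searched on both strands for a sterol regulatory element (TCACNCCAC, bound by SREBPs), an E-box (CACGTG, bound by USF and part of the ChREBP element), the CCAAT box (CCAAT, bound by NF-Y) and the core of the dioxin response element (TNGCGTG, bound by the aryl hydrocarbon receptor). Matches are in capitals in the sequences, which run 5′ to 3′ along the gene, and a CCAAT box on the other strand reads ATTGG.
Fasn, chr11:120824498-120824797, minus strand: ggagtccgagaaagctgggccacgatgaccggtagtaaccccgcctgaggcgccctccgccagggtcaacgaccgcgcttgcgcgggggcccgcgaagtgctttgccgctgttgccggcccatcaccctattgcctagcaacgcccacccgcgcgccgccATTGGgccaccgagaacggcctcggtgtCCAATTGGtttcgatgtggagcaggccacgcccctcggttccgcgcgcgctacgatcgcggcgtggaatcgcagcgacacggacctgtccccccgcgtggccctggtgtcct
Acacb, chr5:114165268-114165567, plus strand: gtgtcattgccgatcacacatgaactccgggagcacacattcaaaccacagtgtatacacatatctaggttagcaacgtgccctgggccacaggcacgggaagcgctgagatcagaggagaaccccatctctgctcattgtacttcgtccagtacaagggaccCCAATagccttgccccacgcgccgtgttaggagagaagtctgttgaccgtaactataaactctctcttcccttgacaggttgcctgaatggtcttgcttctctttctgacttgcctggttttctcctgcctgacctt
Mlxipl, chr5:135089640-135089939, plus strand: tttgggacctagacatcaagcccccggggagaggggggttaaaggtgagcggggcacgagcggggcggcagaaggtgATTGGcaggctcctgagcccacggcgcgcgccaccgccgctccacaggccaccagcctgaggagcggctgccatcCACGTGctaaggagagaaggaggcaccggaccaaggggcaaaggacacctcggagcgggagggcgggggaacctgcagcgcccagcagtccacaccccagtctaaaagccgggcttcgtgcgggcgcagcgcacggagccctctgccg
Mlxipl, second start site, chr5:135106641-135106940, plus strand: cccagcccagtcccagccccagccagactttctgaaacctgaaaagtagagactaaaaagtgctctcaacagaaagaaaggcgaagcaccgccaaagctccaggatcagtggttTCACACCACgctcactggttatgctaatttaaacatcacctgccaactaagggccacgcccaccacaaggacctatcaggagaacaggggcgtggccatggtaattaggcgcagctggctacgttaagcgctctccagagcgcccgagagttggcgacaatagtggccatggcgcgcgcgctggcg
Srebf1, chr11:60210422-60210721, minus strand: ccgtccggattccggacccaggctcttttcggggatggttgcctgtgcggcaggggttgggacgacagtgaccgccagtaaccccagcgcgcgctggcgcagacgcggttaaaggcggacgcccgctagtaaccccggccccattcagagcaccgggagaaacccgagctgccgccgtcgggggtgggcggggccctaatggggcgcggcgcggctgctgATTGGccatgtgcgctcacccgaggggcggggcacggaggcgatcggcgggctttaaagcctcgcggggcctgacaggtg
Thrsp, chr7:97417501-97417800, minus strand: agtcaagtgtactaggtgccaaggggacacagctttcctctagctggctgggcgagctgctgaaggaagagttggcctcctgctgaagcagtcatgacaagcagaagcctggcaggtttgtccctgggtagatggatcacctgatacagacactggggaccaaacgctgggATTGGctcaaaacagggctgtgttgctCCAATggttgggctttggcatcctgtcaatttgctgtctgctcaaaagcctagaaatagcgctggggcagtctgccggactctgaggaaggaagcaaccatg
The Srebf1 windows at chr11:60222532-60222831 and chr11:60220578-60220877 are not printed. The first of them held 1 CCAAT box and the other held no match. The Fasn window held 3 CCAAT boxes, and 2 of them overlap on opposite strands. A CCAAT box stood in 8 of the 13 windows, against 37.4% of the 32851 promoter windows of the table. The E-box was matched only in the first Mlxipl window (7.15% of all windows) and the sterol regulatory element only in the second (1.24%). No window of the 9 genes held the dioxin response core, which 5.07% of all windows held. A match is a description of the letters and not a measured site.

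Measured per length of transcript, the 10 genes spanned a wide range in HFD control. Scd1 led with 4997 ± 1675 FPKM (counts scaled by exon length and library size, SD, n = 5), the 12th highest level of all genes tested, and took 1.20% to 3.42% of all counts of a library. Thrsp followed with 91.4 ± 62.8 FPKM, Mlxipl with 52.4 ± 19.8 FPKM and Me1 with 34.6 ± 4.08 FPKM. Srebf1 (16.97 ± 10.5 FPKM), Acly (11.3 ± 3.56 FPKM), Elovl6 (10.1 ± 2.08 FPKM) and Fasn (5.74 ± 1.72 FPKM) came next. The carboxylases were lowest, with 4.15 ± 0.959 FPKM for Acacb and 2.24 ± 0.248 FPKM for Acaca. Among neighbours in this order, the ranges over the 5 mice did not overlap between Scd1 and Thrsp, between Me1 and Srebf1 and between Acacb and Acaca, and overlapped in the other 6 pairs. The desaturase was far more abundant per length than the synthase that makes its substrate.

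**Figure D1:**
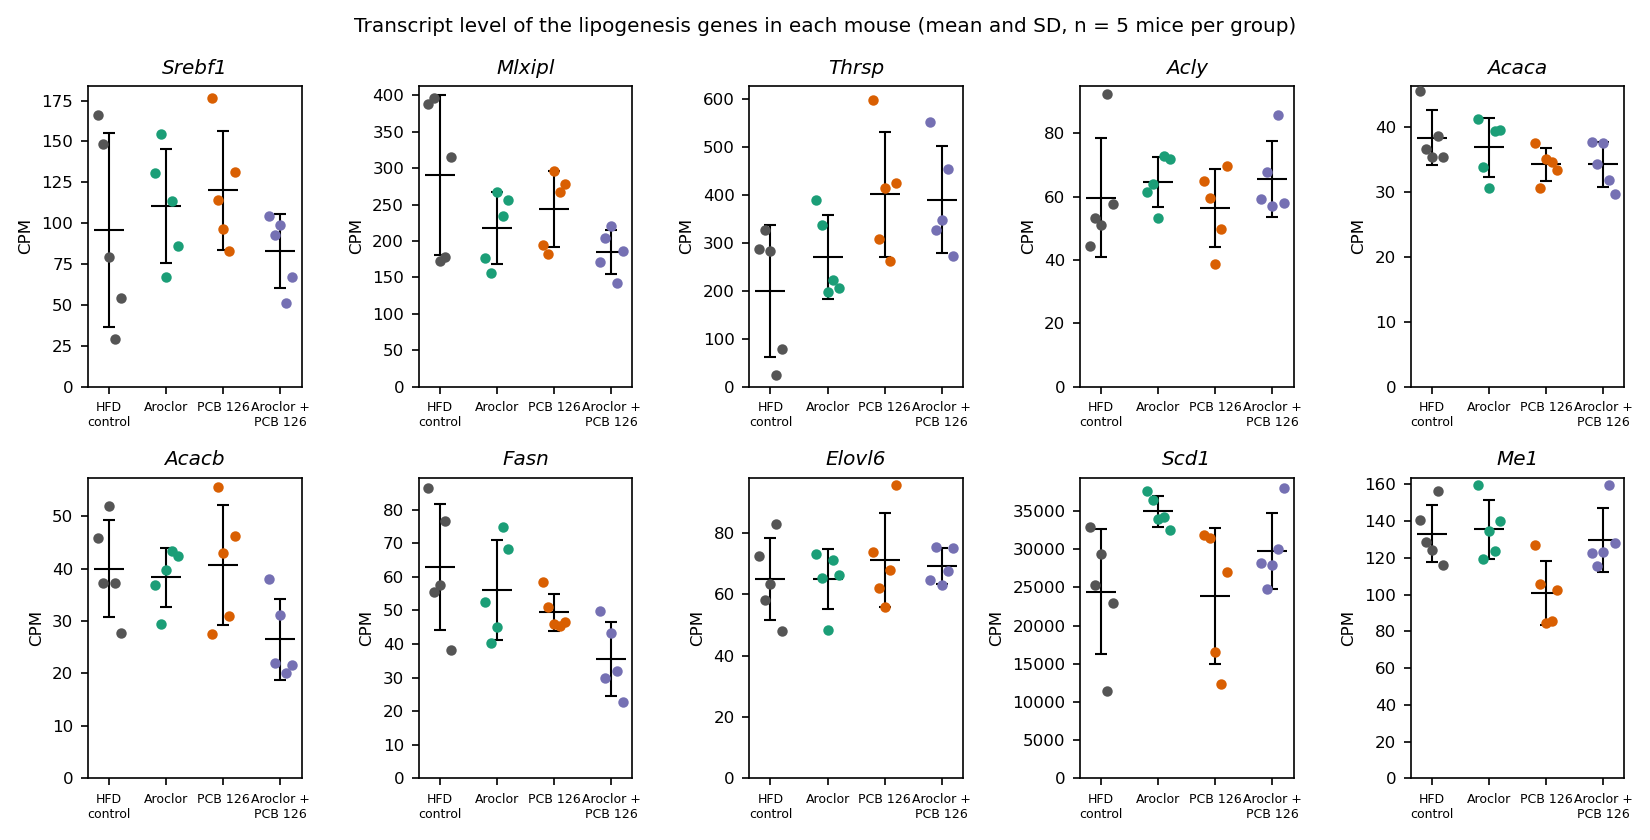
Level of each of the 10 genes (y axis, CPM on a linear scale from 0) in every mouse by exposure group (x axis), with the group mean and SD (n = 5). Fasn, Acacb, Mlxipl, Srebf1 and Acaca had their lowest means in the combined exposure, that of Acaca nearly level with PCB 126. HFD control held the lowest single values of Srebf1, Thrsp and Scd1.

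Against HFD control, none of the 10 genes changed with Aroclor or with PCB 126, and 3 of the 10 changed with the combined exposure (Fasn, Acacb and Mlxipl, all lower) in edgeR's quasi-likelihood test, adjusted by Benjamini-Hochberg across all genes tested. The share of all genes tested that passed was 0% with Aroclor, 0.116% with PCB 126 and 32.8% with the combined exposure, so 3 of 10 is near the share of all genes. After GC correction none of the 10 genes passed, and the share of all genes fell to 4.30% with the combined exposure. At an unadjusted p under 0.05, 2677 of all genes and 1 of the 10 (Scd1) differed with Aroclor, and 2280 of all genes and 2 of the 10 (Me1 and Thrsp) with PCB 126. DESeq2 called 135 genes and none of the 10 with Aroclor, and 320 genes and 1 of the 10 (Me1) with PCB 126. No gene of the 10 had its 5 exposed mice all above or all below the 5 controls in any of the 3 comparisons, while of all genes tested 2.94% did with Aroclor, 2.14% with PCB 126 and 18.8% with both. The median log2FC of the 10 genes was 0.010, -0.056 and -0.10 in the 3 comparisons, against -0.013, -0.018 and -0.00096 over all genes tested. The comparisons share the control mice.

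Of the transcription factors, Mlxipl was lower with the combined exposure and Srebf1 did not pass in any comparison. The 5 HFD control mice had Mlxipl at 389, 396, 172, 178 and 315 CPM. The combined exposure had 171, 204, 221, 142 and 186 CPM. The controls above all 5 exposed mice were replicates 1, 2 and 5, and the other two lay among them. The log2FC was -0.65 (SE 0.226, 1.57-fold lower, edgeR adjusted p = 0.0325). After GC correction the log2FC was -0.16 (edgeR adjusted p = 0.689). Mlxipl has a transcript GC content of 57.5%, above the median of 50.2% of all genes tested. In a fit of only the groups compared the log2FC was -0.67 and the call was lost (edgeR adjusted p = 0.0627). The call was kept in 4 of the 10 fits that left out 1 mouse, and lost without HFD control replicate 1, 2 or 5 or replicate 1, 4 or 5 of the combined exposure (log2FC -0.65 to -0.52). With Aroclor Mlxipl was at 176, 156, 268, 235 and 256 CPM, and with PCB 126 at 194, 182, 296, 267 and 279 CPM. Both single exposures overlapped the controls (log2FC -0.41 and -0.25, edgeR adjusted p = 0.340 and 0.637), and the log2FC was -0.22 and -0.10 after GC correction.

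Srebf1 varied widely among the controls. It was at 166, 148, 79.7, 29.4 and 54.6 CPM in HFD control, so that HFD control replicate 4 was the lowest of the 20 mice. The combined exposure ranged only from 51.5 to 104 CPM (median 92.8), inside the control range. With Aroclor the range was 67.3 to 155 CPM and with PCB 126 it was 83.0 to 177 CPM. The log2FC against HFD control was 0.21 (SE 0.351) with Aroclor, 0.33 (SE 0.351) with PCB 126 and -0.21 (SE 0.351) with the combined exposure, with edgeR adjusted p of 0.769, 0.704 and 0.702. For the combined exposure, the 95% interval of the log2FC reached from -0.94 to 0.52, so with 5 mice per group the data allow a fall or a rise within these bounds. After GC correction the log2FC was 0.37 with the combined exposure, of the opposite sign (edgeR adjusted p = 0.586), 0.48 for Aroclor and 0.57 for PCB 126. Without HFD control replicate 4 the log2FC was -0.02 for Aroclor, 0.10 for PCB 126 and -0.44 for both agents together, and none of them passed.

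Thrsp had the largest fold change of the 10 genes with PCB 126 and with the combined exposure, yet did not pass the adjusted test, except with a replicate block. It was at 287, 327, 282, 25.3 and 78.7 CPM in HFD control. With PCB 126 it was at 598, 307, 414, 262 and 424 CPM, and with the combined exposure at 551, 326, 346, 453 and 272 CPM. Replicates 4 and 5 of HFD control lay below every exposed mouse, and the other controls overlapped the exposed range. The log2FC was 1.00 with PCB 126 (SE 0.445, 2.00-fold higher, edgeR unadjusted p = 0.0352, adjusted p = 0.302). With the combined exposure it was 0.96 (SE 0.444, edgeR adjusted p = 0.103) and 1.09 after GC correction (edgeR adjusted p = 0.157). With the replicate number as a block this difference passed (log2FC 1.18, SE 0.410, edgeR adjusted p = 0.0337), and with block and GC correction together it did not (log2FC 1.30, edgeR adjusted p = 0.0694). Aroclor gave 198 to 390 CPM, a log2FC of 0.43 and an edgeR adjusted p of 0.605. Without HFD control replicate 4, the log2FC was 0.15 with Aroclor, 0.72 with PCB 126 and 0.68 with the combined exposure.

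Of the 3 genes for the enzymes that make malonyl-CoA and palmitate, Fasn and Acacb passed with the combined exposure, both lower, and Acaca did not. This count stands beside 32.8% of all genes tested, and none of these genes passed after GC correction. Fasn was at 86.4, 55.6, 57.7, 76.5 and 38.3 CPM in HFD control. The combined exposure had 49.9, 29.9, 43.4, 31.9 and 22.7 CPM. Every mouse of the combined exposure was below 4 of the controls, and HFD control replicate 5 lay within the exposed range. The log2FC was -0.82 (SE 0.220, 1.77-fold lower, edgeR adjusted p = 0.0076). Of the 3 genes called it was the only one called in all 10 fits that left out 1 mouse (log2FC -0.98 to -0.68). After GC correction the log2FC of Fasn was -0.31 (edgeR adjusted p = 0.398). Fasn transcripts have a GC content of 58.3%. Aroclor gave 40.2 to 74.8 CPM and PCB 126 45.4 to 58.4 CPM, both within the control range (log2FC -0.17 and -0.35, edgeR adjusted p = 0.698 and 0.474). After GC correction these were 0.05 and -0.16.

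The carboxylases differ in where their product is used. Acaca is the cytosolic form that supplies fatty acid synthesis, while Acacb sits at mitochondria, where malonyl-CoA restrains fatty acid oxidation. Acacb was at 45.8, 37.3, 51.9, 37.2 and 27.7 CPM in HFD control. With the combined exposure it was at 37.9, 21.98, 31.2, 20.1 and 21.6 CPM. Replicates 2, 4 and 5 of the combined exposure were below every control and the other two lay among the controls. The log2FC was -0.59 (SE 0.206, 1.51-fold lower, edgeR adjusted p = 0.0326). It was -0.17 after GC correction (edgeR adjusted p = 0.665), and the GC content of Acacb transcripts is 56.8%. The call was kept in 5 of the 10 fits that left out 1 mouse, and lost without HFD control replicate 1 or 3 or replicate 2, 4 or 5 of the combined exposure (log2FC -0.56 to -0.48). Aroclor (29.4 to 43.5 CPM) and PCB 126 (27.6 to 55.5 CPM) overlapped the controls (log2FC -0.06 and 0.02, and 0.10 and 0.17 after GC correction).

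Acaca varied little between mice. Its lowest, median and highest values were 35.3, 36.6 and 45.5 CPM in HFD control, 30.5, 39.3 and 41.1 CPM with Aroclor, 30.6, 34.6 and 37.5 CPM with PCB 126, and 29.6, 34.3 and 37.7 CPM with the combined exposure. The groups overlapped throughout. The log2FC of the combined exposure was -0.16 (95% interval -0.37 to 0.047, edgeR adjusted p = 0.231), and it was -0.37 after GC correction (edgeR adjusted p = 0.0752), with a GC content of 47.0%. Unlike for Acacb, the correction moved Acaca away from 0.

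Acly, which supplies the acetyl-CoA, had 1 control far above the rest. It was at 44.3, 53.3, 51.0, 92.2 and 57.7 CPM in HFD control, where replicate 4 was the highest of all 20 mice. The exposed groups ranged from 53.2 to 72.7 CPM with Aroclor, from 38.7 to 69.5 CPM with PCB 126 and from 57.1 to 85.6 CPM with the combined exposure. The log2FC was 0.12, -0.08 and 0.14 in the 3 comparisons (SE 0.181 in each, edgeR adjusted p = 0.749, 0.880 and 0.612), and 0.18, 0.01 and 0.26 after GC correction. Without HFD control replicate 4 it was 0.33 for Aroclor (edgeR unadjusted p = 0.0479, adjusted p = 0.283), 0.13 for PCB 126 and 0.35 for both agents (edgeR adjusted p = 0.0844), and none of them passed.

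Of the genes that modify the palmitate product, neither Elovl6 nor Scd1 passed in any comparison. Scd1 was at 32960, 25350, 29441, 11483 and 22985 CPM in HFD control. With Aroclor it was at 37686, 36396, 33984, 34222 and 32559 CPM. Of the 5 Aroclor mice 4 were above every control, and the lowest lay just under the highest control. The log2FC was 0.52 (SE 0.246, 1.43-fold higher, edgeR unadjusted p = 0.0483, adjusted p = 0.286), and 0.34 without HFD control replicate 4, which was again the lowest of the 20 mice. PCB 126 ranged from 12393 to 31878 CPM and the combined exposure from 24822 to 38065 CPM (log2FC -0.03 and 0.29, edgeR adjusted p = 0.966 and 0.405). After GC correction the log2FC of Scd1 was 0.47, -0.04 and 0.16 in the 3 comparisons. Elovl6 ranged from 48.1 to 83.2 CPM in HFD control, from 48.4 to 73.1 CPM with Aroclor, from 55.8 to 95.8 CPM with PCB 126 and from 63.3 to 75.5 CPM with the combined exposure. Its log2FC was 0.00 with Aroclor, 0.13 with PCB 126 and 0.09 with the combined exposure, and -0.15 for the last after GC correction.

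Me1 was the member with the smallest unadjusted p with PCB 126. The HFD control mice had 141, 129, 124, 156 and 116 CPM. The PCB 126 mice had 127, 106, 84.4, 85.8 and 102 CPM. All PCB 126 mice but replicate 1 were below every control. The log2FC was -0.40 (SE 0.122, 1.32-fold lower, edgeR unadjusted p = 0.0037, adjusted p = 0.158). With a GC content of 46.3%, Me1 kept this size after GC correction (log2FC -0.41, edgeR adjusted p = 0.0580), and DESeq2 called it (log2FC -0.41, adjusted p = 0.0442). Aroclor gave 119 to 160 CPM and the combined exposure 115 to 160 CPM, and both overlapped the controls (log2FC 0.02 and -0.04, edgeR adjusted p = 0.928 and 0.848). The log2FC of Me1 with the combined exposure was -0.29 after GC correction (edgeR adjusted p = 0.0738).

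**Figure D2:**
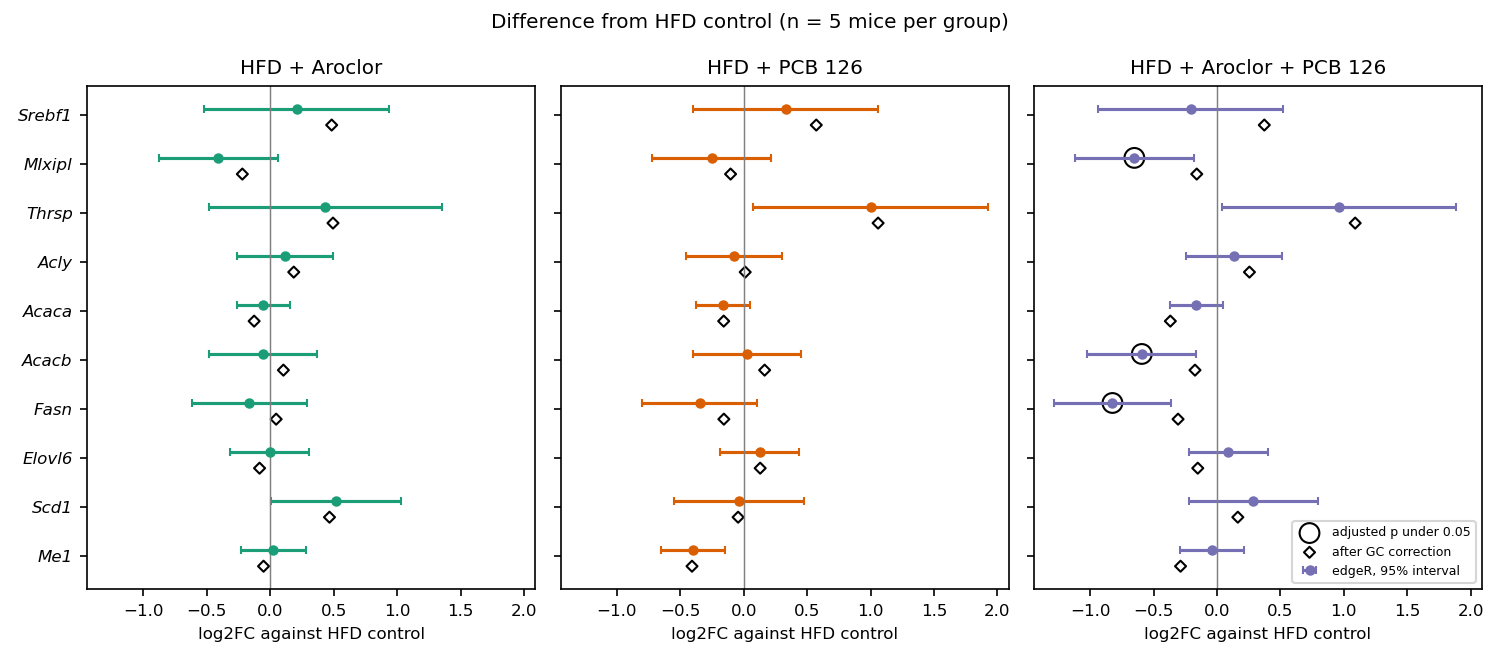
log2FC of each of the 10 genes (x axis) against HFD control for the 3 exposures (panels, n = 5 mice per group), with the 95% interval from edgeR, a ring at adjusted p under 0.05 and a diamond for the log2FC after GC correction. Rings stand only at Mlxipl, Acacb and Fasn with the combined exposure, whose diamonds lie at -0.16, -0.17 and -0.31.

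The 3 genes called were among the 4 genes of the pathway with the highest GC content, the other being Srebf1 (59.4%). With the combined exposure, the median log2FC of all tested genes with a GC content of 55% to 60% was -0.53 (3094 genes), that of genes of 45% to 50% was 0.17 (4142 genes) and that of genes of 40% to 45% was 0.42 (2905 genes). Acacb and Mlxipl lay close to the median of their GC class, Fasn just below its lower quartile of -0.78, and Srebf1 above its upper quartile of -0.27. Thrsp, with a GC content of 52.9%, lay above the upper quartile of its class (0.079). What part the GC dependence of the libraries had in the differences of Fasn, Acacb and Mlxipl cannot be told apart from the exposure by group, since every library of the combined exposure had a lower slope than every control library.

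**Figure D3:**
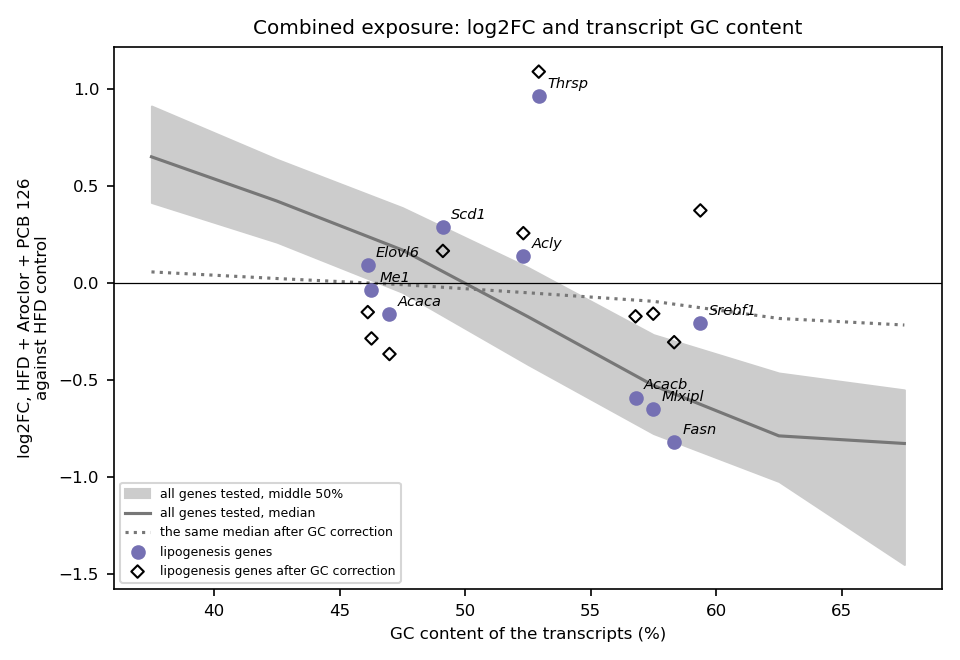
log2FC of the combined exposure against HFD control (y axis) over the GC content of the transcripts (x axis, %) for the 10 genes before and after GC correction, with the median and middle 50% of all genes tested in classes of 5 percentage points. The median of all genes falls from 0.65 at 35% to 40% to -0.53 at 55% to 60%, and Acacb and Mlxipl lie near it.

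The combined exposure was also compared with each single agent. Against HFD + Aroclor, none of the 10 genes passed by edgeR, beside 0.412% of all genes tested (64 genes), and 3639 genes had an unadjusted p under 0.05. DESeq2 called 1 of the 10, Fasn, lower with a log2FC of -0.65 (adjusted p = 0.0348). Against HFD + PCB 126, Acacb was lower (log2FC -0.62, SE 0.206, edgeR adjusted p = 0.0458) and Me1 was higher (log2FC 0.36, SE 0.122, edgeR adjusted p = 0.0475), beside 16.7% of all genes tested. Acacb had been at 27.6, 55.5, 42.9, 31.0 and 46.3 CPM with PCB 126, so 2 of these 5 mice lay within the range of the combined exposure. After GC correction the log2FC was -0.34 for Acacb and 0.12 for Me1 (edgeR adjusted p = 0.335 and 0.478), and 0% of all genes passed (3102 at an unadjusted p under 0.05). Neither passed in a fit of only the groups compared (log2FC -0.63 and 0.35, edgeR adjusted p = 0.0620 and 0.0804). Acacb was called in 3 of the 10 fits without 1 mouse, those without PCB 126 replicate 1 or replicate 1 or 3 of the combined exposure, and its log2FC ranged from -0.78 to -0.48. Me1 was called in 2, those without PCB 126 replicate 1 or replicate 2 of the combined exposure (log2FC 0.24 to 0.46). The interaction asks whether both agents together differ, in log2FC, from the added log2FC of each agent alone. It passed for none of the 10 genes and for 0% of all genes by edgeR (1846 genes and none of the 10 at an unadjusted p under 0.05, and 1 gene by DESeq2). The interaction terms ranged from -0.74 for Srebf1 (SE 0.497) to 0.34 for Me1 (SE 0.172).

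From mouse to mouse, no enzyme gene passed with either transcription factor, except Scd1 with Srebf1 after GC correction. After removal of the group means of log2 CPM, Pearson's r over the 20 mice was computed for 17 pairs, Srebf1 with each of the other 9 genes and Mlxipl with the 8 other than Srebf1. Srebf1 and Thrsp varied together, with r = 0.83 (p = 4.2e-04, adjusted over the 17 pairs 0.0071, two-sided, 100000 permutations within groups) and Spearman's rho = 0.80 (permutation p = 9.4e-04, adjusted 0.0160). Without HFD control replicates 1 and 4, the mice farthest from the median of Srebf1, r was 0.70. After GC correction it was 0.83. Srebf1 and Scd1 had r = 0.63 (permutation p = 0.0093, adjusted 0.0792) and rho = 0.51 (permutation p = 0.0302, adjusted 0.257), and r was 0.34 without the same mice, so this relation rested on them. After GC correction r was 0.74 for this pair (permutation adjusted p = 0.0276). The other 15 pairs did not pass, and the lowest r among them was -0.49, between Mlxipl and Acly (permutation adjusted p = 0.332, rho = -0.47, permutation p = 0.0602, adjusted 0.275, and r = -0.43 without HFD control replicates 3 and 4). Fasn, the synthase that both factors are known to switch on, had r = 0.22 with Srebf1 and 0.01 with Mlxipl (permutation adjusted p = 0.755 and 0.992, rho = 0.29 and -0.08, permutation adjusted p of rho = 0.770 and 0.823, and r = 0.38 and 0.19 without the 2 farthest mice).

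**Figure D4:**
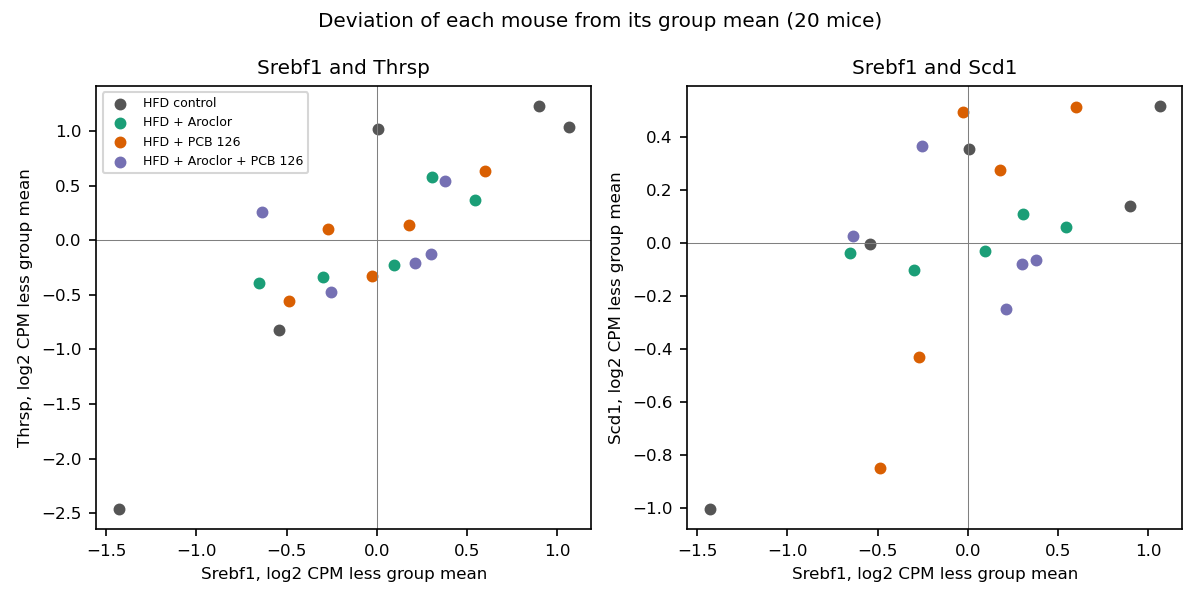
Deviation of Thrsp (left) and Scd1 (right) from the group mean (y axes, log2 CPM) against that of Srebf1 (x axes, log2 CPM) in each of the 20 mice, coloured by group. HFD control replicate 4 is the lowest point in both panels, and r over all mice is 0.83 for Thrsp and 0.63 for Scd1.

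The 5 genes whose deviations were most like the mean of the standardized values of the 10 genes, among 11342 genes with a mean of at least 1 CPM, were Osbpl3 (r = 0.884), Fzd1 (0.871), Abcd2 (0.844), Man2a2 (0.832) and Hlcs (0.825), over the 20 mice. The mean did not stand for all 10 genes alike. Its r was 0.092 with Acly and 0.12 with Mlxipl, and from 0.44 (Acacb) to 0.72 (Fasn) with the others. The correlations of the 5 genes are descriptions chosen from all genes and share the libraries with the 10 genes.

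Lists of other genes of the pathway were examined in the same fits. With either single exposure, no gene of the 6 lists passed by edgeR. With the combined exposure, the counts below stand beside 32.8% of all genes tested. After GC correction 2 genes of the 6 lists passed in all, beside 4.30% of all genes tested. Among 13 regulators of lipogenic transcription, 7 were lower and 1 was higher, with a median log2FC of -0.46. They included Scap, the escort of SREBPs (log2FC -0.62, edgeR adjusted p = 0.0021), the liver X receptor Nr1h2 (-1.12, edgeR adjusted p = 0.0013) and the E-box factor Usf2 (-0.46, edgeR adjusted p = 0.0052). The gene that rose was Mbtps2, which encodes a protease that releases SREBPs (0.77, edgeR adjusted p = 0.0033). The GC-corrected log2FC was -0.30 for Scap, -0.54 for Nr1h2, 0.04 for Usf2 and 0.34 for Mbtps2, and none of them passed. The median of the list after GC correction was -0.09.

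Of 6 genes that supply NADPH, 4 were lower and 1 was higher (median log2FC -0.43, and -0.19 after GC correction). The pentose phosphate enzymes Taldo1 (-0.73, edgeR adjusted p = 0.0041), Tkt (-0.70) and Pgd (-0.44) fell, and Idh1, the cytosolic isocitrate dehydrogenase, rose (0.46, edgeR adjusted p = 0.0023). After GC correction these were -0.55, -0.39, -0.38 and 0.12, and none passed. Of 8 genes of carbon supply, 2 rose and 2 fell (median -0.04, and 0.08 after GC correction). The glucose transporter Slc2a2 (0.78) and the pyruvate dehydrogenase subunit Pdha1 (0.43) were higher, and ketohexokinase Khk (-0.77) and the citrate carrier Slc25a1 (-0.39) were lower. The GC-corrected values were 0.40, 0.17, -0.25 and 0.17, and Slc25a1 had thus turned sign.

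The 2 genes of the lists that passed after GC correction, beside 4.30% of all genes tested, were in the elongation and desaturation list. Of its 10 genes, 3 fell and 2 rose with the combined exposure (median log2FC -0.30, and -0.14 after GC correction). Elovl3, an elongase of saturated and monounsaturated fatty acids, was lower with a log2FC of -0.80 (SE 0.212, edgeR adjusted p = 0.0074) and -0.86 after GC correction (edgeR adjusted p = 0.0205). Elovl5, an elongase of polyunsaturated fatty acids, was lower with -0.32 (edgeR adjusted p = 0.0359) and -0.55 after GC correction (edgeR adjusted p = 0.0126). Elovl6 of the core pathway had 0.09 and -0.15 on the same scales and did not pass. The reductase Tecr was lower (-0.68), while Hsd17b12 (0.34) and Hacd3, the dehydratase partner of the elongases, were higher (0.29). These stood at -0.25, 0.02 and 0.03 after GC correction.

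Of 7 genes of glycerolipid assembly, 1 was lower, the acyltransferase Dgat1 (log2FC -0.33, edgeR adjusted p = 0.0254, and -0.03 after GC correction, list median -0.18 and 0.16 after GC correction). Of 7 genes that restrain lipogenesis, 3 were higher and 2 lower (list median -0.10, and -0.08 after GC correction). The catalytic subunit Prkaa2 of AMP-activated kinase (0.87, edgeR adjusted p = 0.0029) and the deacetylase Sirt1 (0.63) rose, and Mlycd, which degrades malonyl-CoA, fell (-0.64). After GC correction Prkaa2 was at 0.40, Sirt1 at 0.22 and Mlycd at -0.08. Against HFD + PCB 126, the combined exposure had 6 lower regulators, 2 lower genes of glycerolipid assembly, 1 higher and 1 lower gene in each of the NADPH, elongation and restraint lists and none of carbon supply, beside 16.7% of all genes, and none passed after GC correction. Against HFD + Aroclor and for the interaction, none of these genes passed by edgeR.

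**Figure D5:**
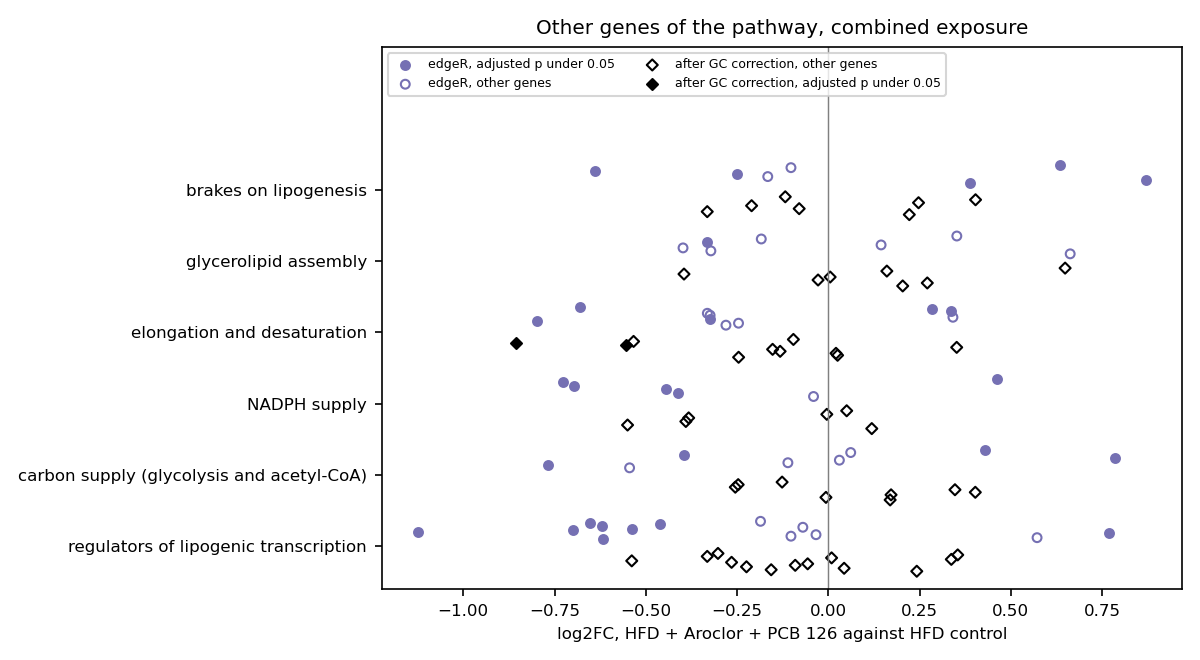
log2FC of the combined exposure against HFD control (x axis) for each gene of the 6 other lists (y axis), from edgeR (circles) and after GC correction (diamonds), filled at adjusted p under 0.05. Filled diamonds stand only in the elongation and desaturation list, at -0.86 (Elovl3) and -0.55 (Elovl5).

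Fewer cells of a type and less RNA per cell cannot be told apart in whole liver. Among the markers of other cell types, the 5 adipocyte markers summed to 133 to 372 CPM in HFD control, 174 to 226 CPM with Aroclor, 141 to 281 CPM with PCB 126 and 125 to 157 CPM with the combined exposure, and 1 of them, Cidec, which hepatocytes with fat also express, was lower with the combined exposure (log2FC -0.61, edgeR adjusted p = 0.0113, and 0.464 after GC correction). Cidec and Cfd made up most of these sums. Cidec ranged from 85.0 to 152 CPM in HFD control and from 53.3 to 97.5 CPM in the combined exposure. Cfd ranged from 28.4 to 245 CPM and from 56.3 to 86.4 CPM in these groups. Adipoq and Plin1, which define adipocytes, were at 11.4 and 8.07 CPM in HFD control replicate 4 and at most 3.22 and 1.96 CPM in the other 19 mice. Of the other adipocyte markers, Cfd was lowest in this mouse (28.4 CPM, with 30.3 to 245 CPM in the others), and Lep was at most 1.42 CPM in any mouse. This mouse had the lowest Srebf1, Thrsp and Scd1 and the highest Acly, and the part of adipose RNA in these values was not tested. With the combined exposure, 3 of 6 hepatocyte markers were lower, 2 of 5 stellate cell markers were higher and 1 was lower. Of 5 macrophage markers 1 was higher, of 5 endothelial markers 1 was lower, and no cholangiocyte or lymphocyte marker passed. These counts stand beside 32.8% of all genes tested. After GC correction, 1 hepatocyte marker and no other cell type marker passed, beside 4.30% of all genes tested. The hepatocyte markers summed to 76995 to 85737 CPM in HFD control and 71447 to 99589 CPM in the combined exposure, and the stellate cell markers to 106 to 208 CPM and 224 to 269 CPM. Most of these sums was Alb (57570 to 67736 and 60895 to 85323 CPM) and Dcn (79.5 to 156 and 169 to 225 CPM). Of the other stellate cell markers, Lrat lay above every control (7.19 to 17.7 and 23.0 to 27.6 CPM). Des lay below every control (2.94 to 13.4 and 1.42 to 2.83 CPM), and Pdgfrb and Col1a1 overlapped the controls. No cell type marker passed with a single exposure.

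Feeding state and time of day also set lipogenic transcripts. Of 6 genes of the fasting response, none passed in any comparison by edgeR. Their sum ranged from 3020 to 5849 CPM in HFD control and from 2394 to 4081 CPM in the combined exposure. Pck1 was its largest part (1938 to 3872 and 1269 to 2546 CPM), so the sum says little of the others. Pdk4 of this list varied widely among the controls, at 11.2, 34.8, 6.86, 53.3 and 134 CPM. With the combined exposure Pdk4 ranged from 49.1 to 96.7 CPM. Of 7 clock genes, 3 were lower and 1 was higher with the combined exposure, beside 32.8% of all genes tested. Beside 4.30% of all genes tested, 1 clock gene was lower after GC correction. That gene, Nr1d1 (REV-ERBα, a clock repressor), was singled out after its values were seen. It was at 70.3, 62.2, 66.1, 61.0 and 71.3 CPM in HFD control, at 23.5, 16.05, 40.1, 34.4 and 32.1 CPM with PCB 126 and at 17.9, 21.3, 26.8, 10.03 and 15.2 CPM with the combined exposure. Both groups given PCB 126 lay below every control, with a log2FC of -1.18 (edgeR adjusted p = 0.0520, and 0.0323 after GC correction) and -1.86 (edgeR adjusted p = 4.9e-04, and 0.0031 after GC correction). With Aroclor Nr1d1 ranged from 32.8 to 68.8 CPM (log2FC -0.35, edgeR adjusted p = 0.458). The parts of feeding state and of the clock in the levels of the lipogenic genes were not tested.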

How the data were processed

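The deposited values were raw counts for each Ensembl gene and each of 20 mouse livers, with no normalization by the authors. Per the methods, they made stranded poly(A) libraries, sequenced them in 2 runs, used STAR 2.6 to align reads to GRCm38.p6 and HTSeq 0.10.0 to count them. The annotation release and strand setting are not given in the sources used here, and neither is which run held which library. Columns were matched to mice by sample title, which was followed where the label of PCB 126 replicate 2 gave another number. The p-values of the main fit rest on the spread between mice within groups, estimated together over the 4 groups of 5 mice.

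The 15522 genes with 10 or more counts in all were tested in 1 fit of the 20 libraries, with TMM normalization, edgeR 4.0.16 in R 4.3.3, a two-sided quasi-likelihood test and Benjamini-Hochberg adjustment, called at an adjusted p under 0.05. CPM uses TMM library sizes, and log2 CPM a prior count of 2. FPKM, lengths, symbols and GC content used GENCODE M21 exons, with 21754 of 21780 identifiers matched. GC correction entered the smooth trend of each library over GC content (spline, 6 degrees of freedom) as an offset. Alternatives were RLE size factors, no filter, filterByExpr, at least 1 FPKM in 3 libraries and on average, a replicate block, only the groups compared, DESeq2 1.42.0 (the authors' tool) and each mouse left out in turn. The numbers come from the labels and name different animals. The deviations of same-numbered mice correlated over 0.1 in 5 of 5 pairs of HFD control with the combined exposure (r 0.148 to 0.765). Over all groups this held in 14 of 30 pairs. In the Results the block was therefore given for that comparison alone. For the other comparisons it is given only in the closing section on processing. The fits were tested on simulated data. Counts of the 40 pairs of mice within groups all differed beyond counting error (chi-square over its degrees of freedom at least 19.7).

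The 10 genes and all lists were chosen with earlier results of these data known. Named genes are all 10, up to 4 called genes of each list by lowest p, the exposure markers Cyp1a1, Cyp1a2 and Cyp2b10, defining cell type markers, and the 5 genes most like the mean of the 10. Elovl5, Cidec, Hacd3, Nr1d1, Pck1 and Pdk4 were named after their values were seen.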

Additional observations from a re-analysis of the deposited data

Results flagged for a closer look

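For each of the 10 genes in each of the 4 groups, the highest and the lowest mouse were set against the other 4 by Dixon's test. Of these 40 groups 2 stood out, where chance alone singles out about 1 in 20. Acly in HFD control replicate 4 was at 92.2 CPM, while the other controls ranged from 44.3 to 57.7 CPM. Me1 in replicate 4 of the combined exposure was at 160 CPM, while the others of its group ranged from 115 to 128 CPM. No interaction of the 10 genes passed.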

How the results depend on the processing

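The replicate numbers name different animals. Over all groups, 8 of the 30 same-numbered pairs correlated best with their own number. With the replicate block, 26 genes changed with Aroclor, 101 with PCB 126, 475 between the combined exposure and Aroclor and 38 for the interaction. Thrsp was then called with the combined exposure (log2FC 1.18, adjusted p = 0.0337), which made 4 of the 10 genes, and the block changed no other call of the 10 in this comparison. With GC correction, 47 genes changed with PCB 126, 668 with the combined exposure, 3 against Aroclor and 0 against PCB 126, none of the 10 was called in any of these, and 2 correlations passed in place of 1. With GC correction and block these counts were 145, 933, 40 and 153, with 25 for Aroclor and 44 for the interaction. In this fit 1 of the 10, Me1, was called with PCB 126 and 0 in the combined comparisons. DESeq2 called 135 genes with Aroclor, 320 with PCB 126 (1 of the 10), 1343 between the combined exposure and Aroclor (1 of the 10) and 1 for the interaction. With PCB 126, filterByExpr gave 68 genes, the FPKM filter 47 and only the groups compared 4. Between the combined exposure and Aroclor, RLE size factors gave 107, no filter 13, filterByExpr 292, the FPKM filter 636 and only the groups compared 0. Only the groups compared gave 0 of the 10 against PCB 126. The cause of these differences was not tested.

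Signs turned for log2FC that no fit called. After GC correction, without and with the block, these were Fasn (0.046 and 0.067), Acacb (0.10 and 0.12) and Me1 (-0.053 and -0.056) with Aroclor, Acly (0.012 and 0.019) with PCB 126, and Srebf1 (0.37 and 0.52) and Elovl6 (-0.15 and -0.15) with the combined exposure. Acacb with PCB 126 was -0.0060 under the FPKM filter.

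Leaving out 1 mouse at a time gave 0 to 2 genes with Aroclor, 4 to 127 with PCB 126, 3894 to 5679 with the combined exposure, 0 to 1036 between it and Aroclor, 4 to 3416 between it and PCB 126 and 0 for the interaction. Of the 10 genes, 1 to 3 were then called with the combined exposure and 0 to 2 between it and PCB 126. The highest counts came without PCB 126 replicate 3 (127), replicate 3 of the combined exposure (1036) and PCB 126 replicate 1 (3416). The count of 4 came without PCB 126 replicate 2 against HFD control, and without PCB 126 replicate 3 against the combined exposure. The log2FC whose sign turned, none of them called, ranged with Aroclor from -0.023 to 0.50 for Srebf1, -0.10 to 0.014 for Acaca, -0.17 to 0.052 for Acacb, -0.094 to 0.10 for Elovl6 and -0.042 to 0.088 for Me1. With PCB 126 they ranged from -0.12 to 0.14 for Acacb, -0.21 to 0.13 for Scd1, -0.0025 to 0.23 for Elovl6 and -0.17 to 0.13 for Acly, and with the combined exposure from -0.44 to 0.087 for Srebf1, -0.030 to 0.35 for Acly and -0.18 to 0.026 for Me1. Of the log2FC given for single genes, 307 kept direction and side of the threshold without 1 mouse and 275 under the other alternatives, while 26 and 13 lost the call, 27 and 13 changed sign and 0 and 3 gained it.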
